A study of Drosophila melanogaster with 76 samples.

Results

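The genes of 7 insulator proteins of Drosophila melanogaster were examined for ChIP-seq peaks: Elba1, Elba2, BEAF-32, CTCF, Cp190, su(Hw) and mod(mdg4). They were taken by name, as 7 of the 14238 genes of the Release 6 gene table, each with 5 kb either side, and measured values played no part in the choice. The peaks came from 40 deposited lists in 20 groups of 2. Embryos labelled Mutant and embryos labelled WT were collected at 1–1.5 h and 2.5–3 h and tested with antibodies to Zelda, GAF, Pol II and pSer5, and WT embryos also with an antibody to IntS11. Larvae labelled 48AEL, either ZygoticMutant or WT, were tested for Pol II alone. The titles of Mutant and WT embryos both carry the words IntS11 mislocalized, so genotype was read from the words Mutant and WT, and the labels name no allele. IntS11 is the RNA-cleaving subunit of the Integrator complex, which ends short Pol II transcripts and processes small nuclear RNAs. Nothing in the labels says whether the 2 lists of a group came from separate collections, so the p-values measure the spread between lists, which may be technical.

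Insulator proteins bind boundaries between chromatin domains and can block contact between an enhancer and a promoter on either side. BEAF-32, CTCF and su(Hw) bind DNA through zinc fingers, Cp190 and mod(mdg4) are cofactors that the DNA-binding proteins recruit, and the Elba complex, named for its activity in the early blastoderm, is built from Elba1 and Elba2, which hold BEN domains, and the adaptor Elba3. Zelda and GAF open chromatin in the early embryo, and pSer5 is read here as Pol II with serine-5 phosphate on its tail, the form found early in transcription. The peaks described here lie at the genes that encode the insulator proteins and say nothing of where those proteins themselves bind.

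Elba1 (2L:4683052–4684461) lies wholly inside the span of CG11929, and Elba3 (2L:4687511–4688956) falls in its window. Elba2 (2L:2577687–2579179) shares its window with insv, a gene for a related BEN-domain factor, and with Sws1, Rad1, ND-B17.2, Arpc5, Drp1 and part of Cyp309a2. BEAF-32 (2R:14770469–14772630) stands between Spred and kn, and CTCF (3L:7353578–7356713) overlaps qm and is followed by pst and Sec63. On 3R lie su(Hw) at 14304455–14308589 beside IFT54 and Polr2I, Cp190 at 15270432–15275241 between Zip88E and CG4338, and mod(mdg4) at 21370101–21377401 with tin as the only other gene in its window. Because neighbours share these windows, a peak is described with the genes that it covers.

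The measure throughout is the number of base pairs (bp) of a window that lie under peaks. Lists held 1276 to 12202 peaks, and they give positions only, so read depth and peak height were unknown. Mutant embryo lists had 4.51% to 26.7% of their peaks within 500 bp of an annotated gene end, WT embryo lists 42.4% to 67.5%, and larval lists 59.1% to 70.3%. Mutant Pol II at 2.5–3 h included the lowest list, at 4.51%, with 7.26% in the other, against 61.3% and 62.4% in WT. These shares move with the genotype in the same direction as the results below, and their part in them was not tested.

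In mutant embryos the windows of the Elba genes mostly kept peaks, some of them over neighbouring genes only. Those of the 5 other insulator protein genes mostly lost them, in a share near that of all genes. A gene was called lost where its window held a peak in both WT lists and in no mutant list, kept where all 4 lists had one, and gained where only the 2 mutant lists did. BEAF-32, CTCF, Cp190, su(Hw) and mod(mdg4) had peaks in both WT lists in all 40 pairs of gene with antibody and stage. Of these, 29 (72.5%) were lost and 8 (20.0%) kept. Elba1 and Elba2 had WT peaks in 12 of 16 such pairs, of which 1 (8.3%) was lost and 9 (75%) kept, and 1 further pair was gained. Over all genes and the 8 embryo comparisons together, 64.8% of pairs with peaks in both WT lists were lost and 25.1% kept, and 6.62% of pairs with none in either were gained. Both mutant values lay below both WT values in 40 of 40 pairs of the 5 other genes and in 6 of the 14 Elba pairs that had a peak at all, against 82.2% of pairs over all genes. In 3 of the Elba pairs both mutant values lay above both WT values, against 5.02% over all genes. Whether the Elba genes differ from the other 5 was not put to a test.

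**Figure D1:**
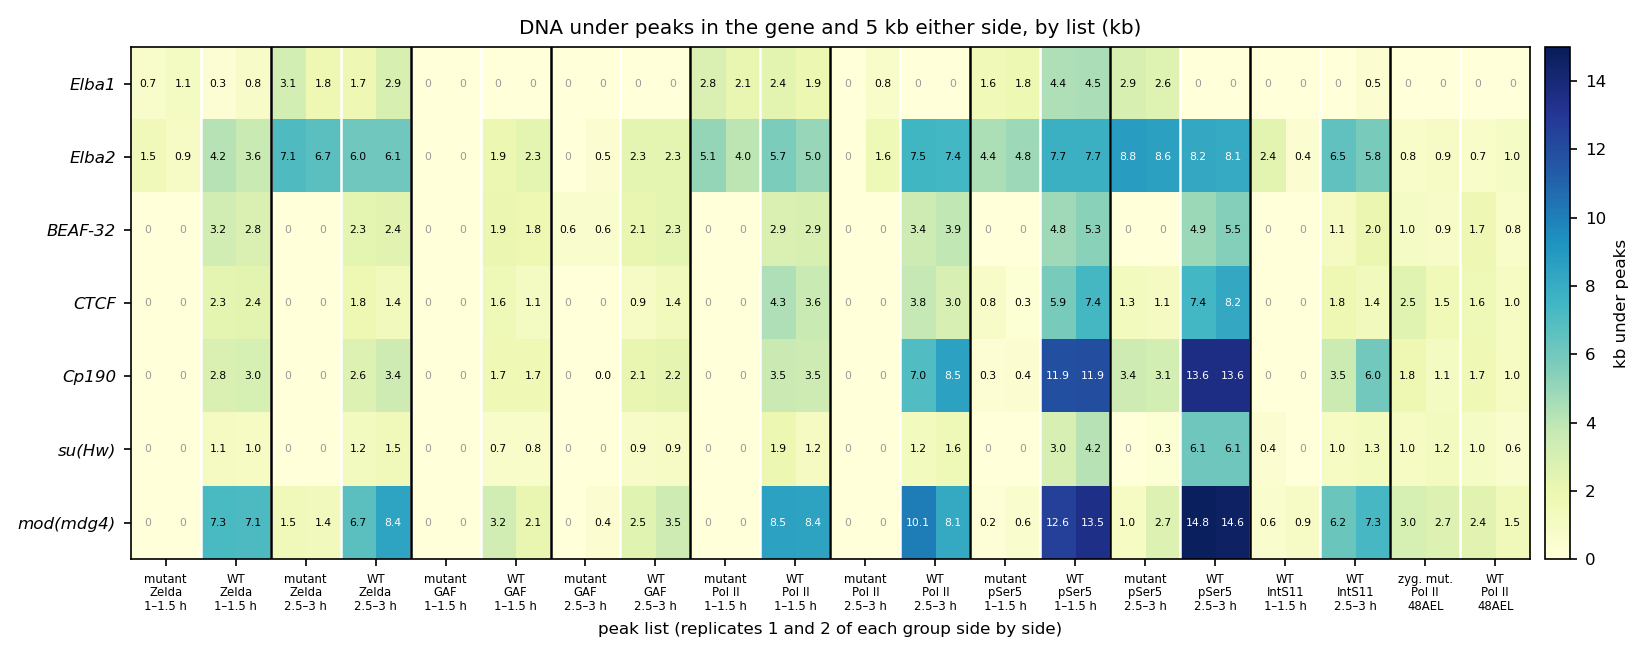
Base pairs under peaks (kb) in each gene with 5 kb either side (rows), for each of the 40 lists (columns, replicates side by side, mutant left of WT). The lower 5 rows are 0 in most mutant embryo columns, while Elba1 and Elba2 keep values above 0 for Zelda, Pol II at 1–1.5 h and pSer5.

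The window of Elba1, a BEN-domain subunit of the Elba complex, held Zelda and Pol II in mutant embryos. The ranges of their lengths overlapped those in WT, but at 1–1.5 h the mutant peaks lay mainly over neighbouring genes. Zelda covered 672 and 1065 bp of its window in mutant embryos at 1–1.5 h, against 345 and 849 bp in WT. The later Zelda peaks, at 2.5–3 h, measured 3107 and 1769 bp in mutant embryos and 1743 and 2907 bp in WT, so the groups overlapped at both stages. Pol II covered 2833 and 2093 bp in mutant embryos at 1–1.5 h and 2393 and 1901 bp in WT, again overlapping. Within Elba1 itself, both mutant lists of 1–1.5 h had 0 bp of Zelda, against 0 and 175 bp in WT. At that stage Pol II covered 9 and 0 bp of the gene in mutant embryos, against 344 and 319 bp in WT. These mutant peaks lay mainly over Elba3, CG3251 and CG11929. Later, at 2.5–3 h, Zelda covered 274 and 192 bp of Elba1 in mutant embryos and 336 and 444 bp in WT. No list of GAF and no larval list had a peak in the window.

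The pSer5 form at Elba1 differed by genotype in opposite directions at the 2 stages. At 1–1.5 h it covered 1574 and 1832 bp in mutant embryos, against 4361 and 4504 bp in WT, where the whole of Elba1 lay under a peak. Later, at 2.5–3 h, the mutant lists had 2882 and 2580 bp, and both WT lists had no peak. Mutant peaks at that stage covered 862 and 951 bp of Elba1 itself, with others over Elba3 and CG3251. Among genes with pSer5 in neither WT list at 2.5–3 h, 7.97% gained it in both mutant lists, and both mutant values lay above both WT values for 5.25% of all genes with a peak. Pol II at that stage was absent from both WT lists and from 1 mutant list, and the other mutant list had 762 bp. With 2 lists against 2, an exact permutation test cannot go below p = 0.333.

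A short stretch between genes in the Elba1 window carried early Zelda in both genotypes. Both mutant lists had 248 bp of the 278 bp between CG11929 and Elba3 (2L:4687233–4687510) under a Zelda peak at 1–1.5 h, against 269 and 264 bp in WT. The same stretch was bare of Zelda in both mutant lists at 2.5–3 h and covered over 272 and 278 bp in WT. Pol II at 1–1.5 h left it bare in mutant embryos, with a peak of 2385 and 2409 bp starting inside Elba3, and covered 170 and 222 bp of it in WT.

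**Figure D2:**
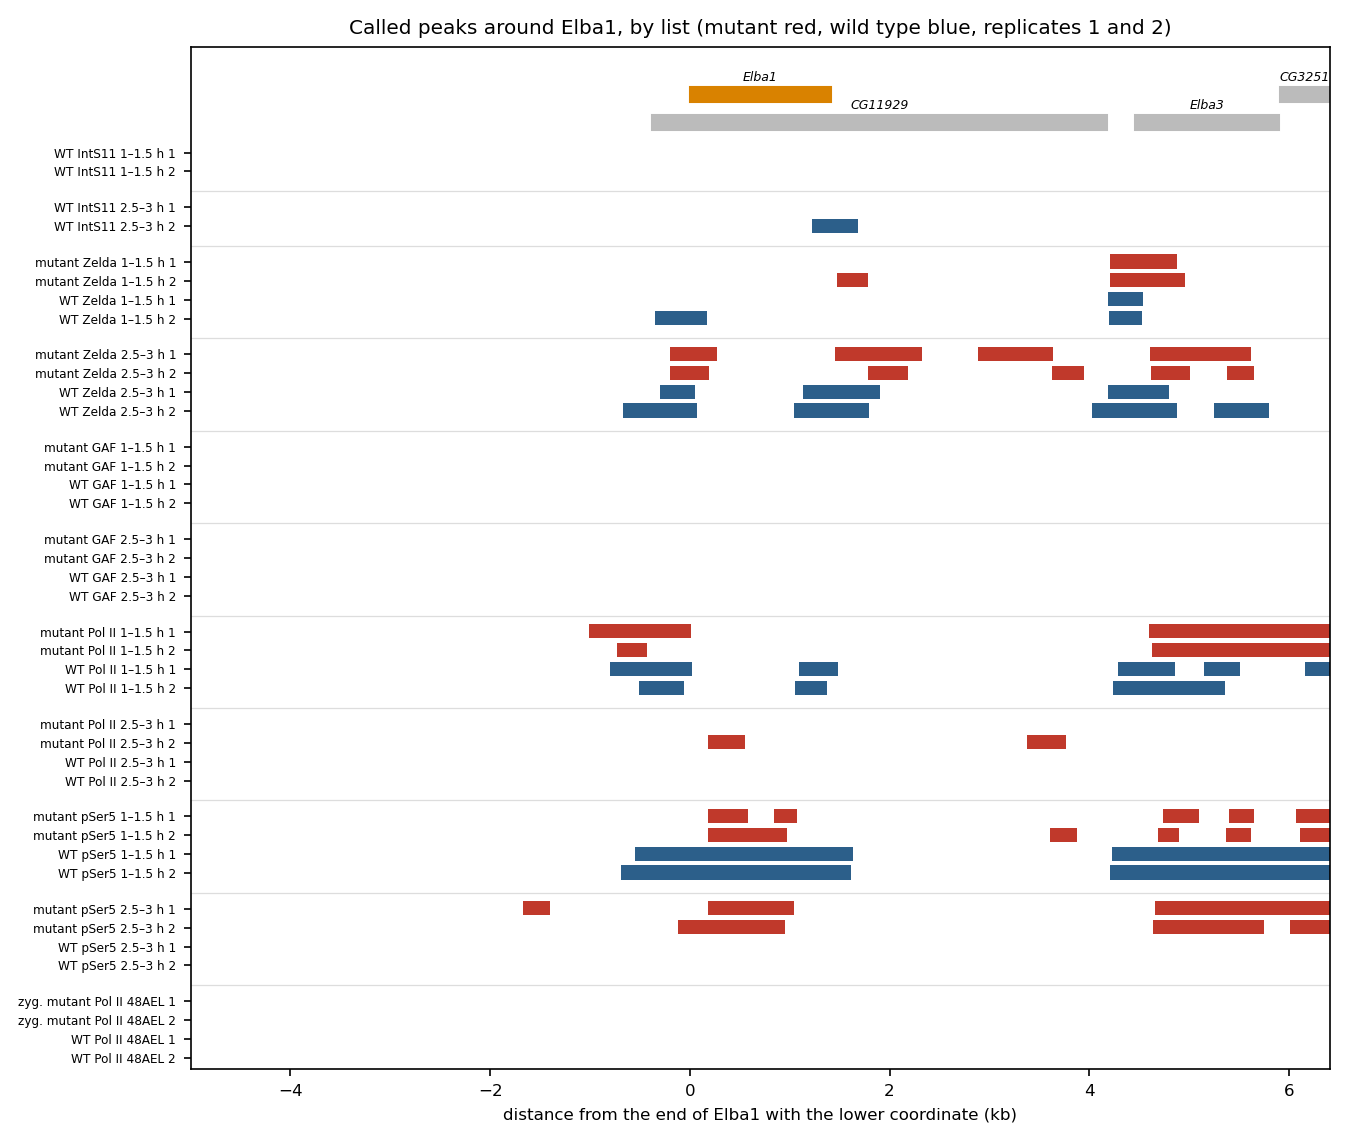
Called peaks in the Elba1 window, one row per list, by distance (kb) from the end of Elba1 with the lower coordinate, with annotated genes on top, mutant peaks in red above WT peaks in blue. Mutant pSer5 peaks lie over Elba1 and Elba3 at both stages, and WT pSer5 peaks are seen at 1–1.5 h only.

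Elba2, the other BEN-domain subunit, held Zelda and pSer5 in mutant embryos and had less GAF than WT. Zelda covered 1484 and 882 bp in mutant embryos at 1–1.5 h and 4215 and 3581 bp in WT. The mutant lists of 2.5–3 h had 7057 and 6689 bp, above both WT values of 6036 and 6053 bp, a difference of 0.18 on the log2(bp + 200) scale. A single mutant peak of 6819 bp in replicate 1 and 6689 bp in replicate 2 ran without a break over Rad1, Sws1, insv, Elba2, ND-B17.2 and Arpc5, where each WT list had 3 shorter peaks. Both mutant values above both WT values for Zelda at 2.5–3 h were found for 1.76% of all genes with a peak.

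Polymerase at Elba2 depended on the stage. Pol II covered 5088 and 4017 bp in mutant embryos at 1–1.5 h and 5711 and 5015 bp in WT, which overlap. Later, at 2.5–3 h, it had no peak in mutant replicate 1 and 1635 bp in replicate 2, against 7493 and 7421 bp in WT. Across the window the pSer5 form went the other way. It covered 4396 and 4838 bp in mutant embryos at 1–1.5 h against 7748 and 7737 bp in WT. The lists of 2.5–3 h gave 8758 and 8557 bp in mutant embryos against 8193 and 8066 bp in WT, a separation found upward for 5.25% of all genes with a peak. Of these late mutant values, 2030 and 2606 bp were separate peaks over Drp1. Within Elba2 itself, mutant pSer5 covered 827 and 780 bp, then 1082 and 1047 bp, against all 1493 bp in each WT list. GAF had no mutant peak at 1–1.5 h against 1921 and 2294 bp in WT, and at 2.5–3 h it covered 0 and 464 bp in mutant embryos against 2287 and 2286 bp in WT.

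Mutant Zelda and mutant polymerase differed in position at Elba2. In WT embryos the 689 bp between insv and Elba2 (2L:2576998–2577686) lay wholly under a peak in all lists of Zelda, GAF, Pol II and pSer5. Mutant Zelda covered 689 and 273 bp of it at 1–1.5 h and 689 bp in both lists at 2.5–3 h. No mutant list of Pol II or pSer5 had a peak there. Mutant pSer5 at 1–1.5 h stood as separate peaks over the neighbouring genes, 1007 and 1014 bp over insv, 827 and 780 bp over Elba2, 354 and 549 bp over ND-B17.2 and 637 and 658 bp over Arpc5, where each WT list had 1 peak of 7748 or 7737 bp across all of them.

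**Figure D3:**
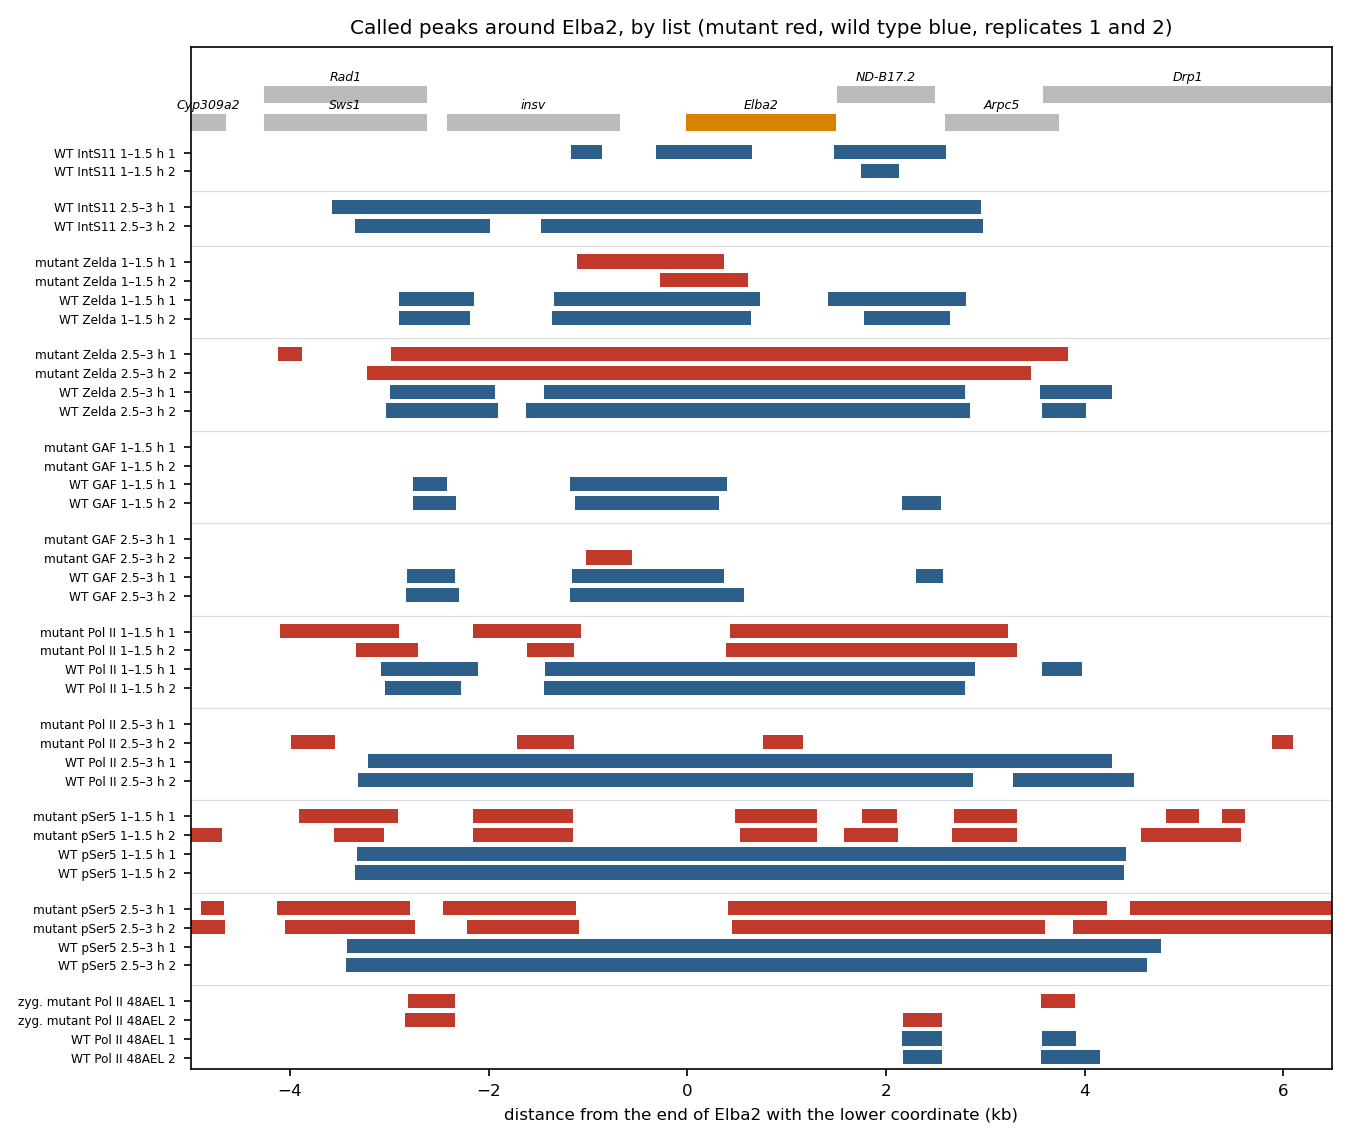
Called peaks in the Elba2 window, one row per list, by distance (kb) from the end of Elba2 with the lower coordinate, with annotated genes on top. Mutant Zelda (red) covers the stretch left of Elba2, while mutant Pol II and pSer5 lie over the genes and leave that stretch bare.

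In mutant embryos the windows of BEAF-32, CTCF and su(Hw), genes of DNA-binding insulator proteins, held few peaks, apart from pSer5 inside CTCF. BEAF-32, a boundary protein found near promoters, was lost in 7 of its 8 comparisons. Its only mutant peaks were of GAF at 2.5–3 h, with 578 and 627 bp against 2122 and 2327 bp in WT, and they covered the neighbour Spred and not BEAF-32. WT GAF peaks also lay over Spred, and at that stage they covered 0 and 489 bp of BEAF-32 itself. Both pSer5 comparisons, with 4771 and 5337 bp in WT at 1–1.5 h and 4912 and 5497 bp at 2.5–3 h, had no mutant peak. Zelda had none either, against 3206 and 2831 bp in WT at 1–1.5 h and 2300 and 2403 bp at 2.5–3 h. Pol II was likewise at 0 bp in mutant embryos, against 2858 and 2926 bp in WT at 1–1.5 h and 3447 and 3909 bp at 2.5–3 h. GAF at 1–1.5 h showed no mutant peak against 1944 and 1760 bp in WT, none of it within BEAF-32 itself.

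CTCF, the fly relative of the vertebrate insulator protein of that name, kept only pSer5. It measured 822 and 253 bp in mutant embryos at 1–1.5 h, against 5855 and 7378 bp in WT. The later lists, at 2.5–3 h, gave 1293 and 1136 bp in mutant embryos, against 7435 and 8179 bp in WT. The mutant peaks lay inside CTCF, such as 3L:7355841–7356438 in replicate 1 at 2.5–3 h, with 1 more over qm. Within CTCF itself, pSer5 covered 822 and 253 bp in mutant embryos at 1–1.5 h, which overlaps 807 and 909 bp in WT. By 2.5–3 h it covered 910 and 1136 bp of the gene in mutant embryos and 1370 and 1906 bp in WT. All other comparisons of the window were lost. WT had 2336 and 2369 bp of Zelda, 1639 and 1065 bp of GAF and 4344 and 3604 bp of Pol II at 1–1.5 h. Its later lists, at 2.5–3 h, had 1799 and 1352 bp of Zelda, 936 and 1390 bp of GAF and 3774 and 2961 bp of Pol II. The WT GAF lay mainly over Sec63. It covered 210 and 0 bp of CTCF itself at 1–1.5 h and 0 and 141 bp at 2.5–3 h.

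The gene of su(Hw), the zinc-finger protein of the gypsy insulator, was lost in 7 of 8 comparisons. A single mutant peak was found, 276 bp of pSer5 over CG31321 in replicate 2 at 2.5–3 h, against 6136 and 6118 bp in WT. WT pSer5 at 1–1.5 h measured 2967 and 4202 bp. Zelda in WT covered 1138 and 1046 bp at 1–1.5 h and 1194 and 1465 bp at 2.5–3 h, and these peaks covered the 499 bp between su(Hw) and Polr2I wholly in 3 lists and 444 bp of them in the other. WT GAF covered 706 and 809 bp, then 855 and 928 bp, and WT Pol II 1909 and 1164 bp, then 1234 and 1606 bp.

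The windows of the cofactor genes Cp190 and mod(mdg4) kept some pSer5 in mutant embryos. At Cp190, the cofactor shared by several insulator proteins, pSer5 measured 350 and 397 bp in mutant embryos at 1–1.5 h, all over CG4338, against 11883 and 11902 bp in WT. Mutant lists of 2.5–3 h had 3412 and 3149 bp of pSer5, of which 1215 and 963 bp lay in Cp190, against 13619 and 13630 bp in WT. In WT 1 peak of 23492 or 23490 bp then covered all of Cp190 and 92.0% of its window over both lists, and reached beyond the window on the side of lower coordinates. Zelda and Pol II had no mutant peak. WT Zelda covered 2806 and 3032 bp at 1–1.5 h and 2647 and 3439 bp at 2.5–3 h, and WT Pol II 3519 and 3451 bp, then 7002 and 8497 bp. GAF had no mutant peak at 1–1.5 h against 1685 and 1656 bp in WT, and at 2.5–3 h 1 mutant list touched the window by 10 bp, against 2112 and 2232 bp in WT.

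At mod(mdg4), a BTB-domain gene with many isoforms, a single site held Zelda in mutant embryos. It had no Zelda in mutant embryos at 1–1.5 h against 7260 and 7132 bp in WT. By 2.5–3 h each mutant list had 1 peak of Zelda, 1509 bp at 3R:21373281–21374789 and 1395 bp at 3R:21373224–21374618, within the gene, against 6714 and 8384 bp in WT. The same site carried the only IntS11 peaks of the window in WT embryos at 1–1.5 h, of 598 and 901 bp.

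In the window of mod(mdg4) Pol II was lost at both stages, and pSer5 was kept over shorter lengths than in WT. The pSer5 form covered 226 and 599 bp in mutant embryos at 1–1.5 h against 12578 and 13519 bp in WT. Of this, 0 and 340 bp lay within mod(mdg4) itself in mutant embryos, against 6232 and 6364 bp in WT. In the later pSer5 lists, of 2.5–3 h, it covered 1032 and 2741 bp in mutant embryos against 14797 and 14627 bp in WT. Pol II was at 0 bp in every mutant embryo list, against 8525 and 8441 bp in WT at 1–1.5 h and 10113 and 8121 bp at 2.5–3 h. GAF had no mutant peak at 1–1.5 h, against 3194 and 2090 bp in WT, and 0 and 362 bp in mutant embryos at 2.5–3 h, against 2502 and 3454 bp in WT.

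**Figure D4:**
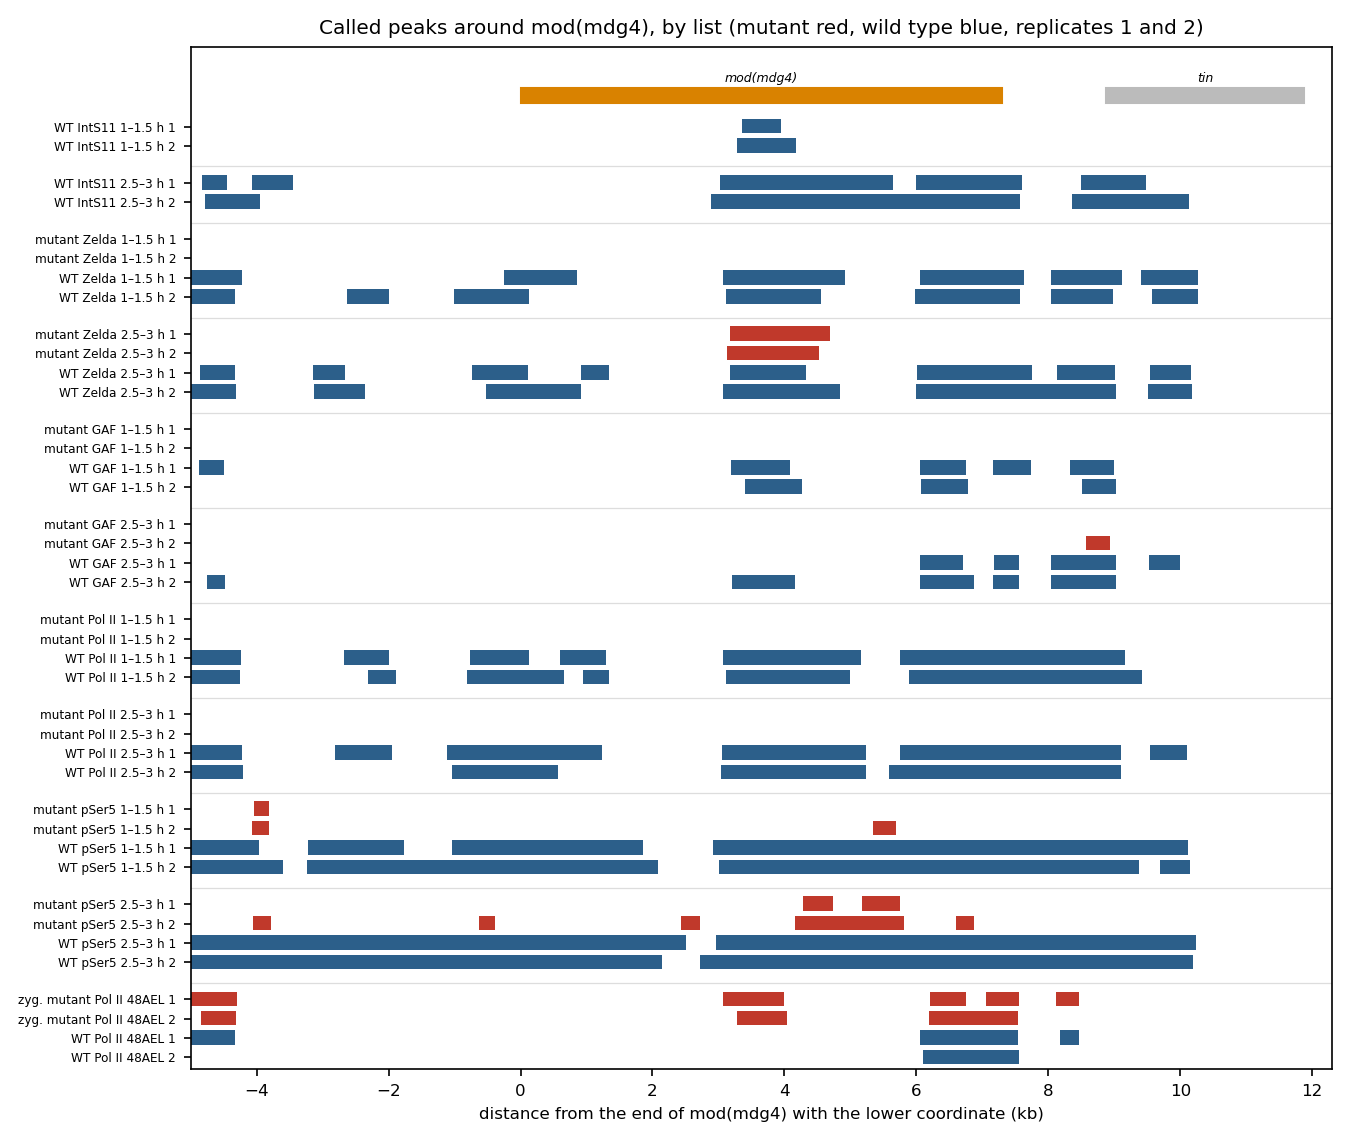
Called peaks in the mod(mdg4) window, one row per list, by distance (kb) from the end of the gene with the lower coordinate. The mutant Zelda peaks at 2.5–3 h and the WT IntS11 peaks at 1–1.5 h share a site inside the gene, and mutant Pol II rows of embryos are empty.

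By antibody and stage, the lost members were 5 of 7 for Zelda at 1–1.5 h (85.3% of all genes with peaks in both WT lists) and 4 of 7 at 2.5–3 h (68.5%). GAF lost 6 of 6 members at 1–1.5 h (78.3% of all genes) and 2 of 6 at 2.5–3 h (53.7%), where 3 more had a peak in mutant replicate 2 alone, so that 5 were lost without that replicate. Pol II lost 5 of 7 at 1–1.5 h (70.2% of all genes) and 5 of 6 at 2.5–3 h (83.7%), and pSer5 lost 2 of 7 (46.2% of all genes) and 1 of 6 (37.2%), which became 2 without mutant replicate 2. The share lost was lowest for pSer5, both among the members and among all genes.

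The stretch of DNA beside a member gene was compared as well, by a rule chosen after the peaks had been seen. Of the members, 6 adjoin exactly 1 stretch of 200 to 2000 bp without annotated genes, and Elba1, inside another gene, adjoins none. In the 4 comparisons of Pol II and pSer5, the stretches under peaks in both WT lists were bare in both mutant lists for 6 of 6 members each time. Genome-wide this held for 94.3% of 2201 such stretches for Pol II at 1–1.5 h and 98.6% of 2491 at 2.5–3 h, and for 97.5% of 2606 and 95.7% of 3015 for pSer5. For Zelda 5 of 6 were bare at each stage, against 98.1% and 93% genome-wide, the exception being Elba2. GAF left 5 of 5 bare at 1–1.5 h (93.5% genome-wide) and 3 of 5 at 2.5–3 h (78.2%), where Elba2 and mod(mdg4) each had a peak in 1 mutant list. Together, 42 of 46 were bare, against 94.6% genome-wide. The mutant pSer5 peaks that remained at CTCF, Cp190, mod(mdg4) and Elba2 lay elsewhere in their windows. At mod(mdg4) some lay over other DNA without annotated genes, 226 and 259 bp at 1–1.5 h and 0 and 523 bp at 2.5–3 h. At Elba2 190 and 140 bp did so at 2.5–3 h. The 5000 bp without annotated genes on the other side of mod(mdg4) are longer than the rule allows and were not counted.

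Over the 4 antibodies and both stages together, 6 of the 7 members had less DNA under peaks in mutant embryos, and Elba1 did not. The statistic was the mean log2(bp + 200) of mutant minus WT lists, tested by two-sided exact permutation of genotype within antibody and stage with Benjamini-Hochberg adjustment over 12332 genes, of which 82.6% were called lower and 3.65% higher. The values were −4.11 for mod(mdg4), −3.83 for Cp190, −3.79 for BEAF-32, −3.35 for CTCF and −3.13 for su(Hw), each with adjusted exact p = 3.19e-06, against a median of −2.27 over all genes tested. Elba2 had −1.53 (adjusted exact p = 0.000206) and Elba1 0.55 (adjusted exact p = 0.143). The size of these values depends on the added 200 bp wherever a list has no peak. Divided by the length under peaks in the whole list, which moved the median of all genes to −1.67, Elba2 no longer passed (−0.59, adjusted exact p = 0.249) and Elba1 passed as higher (1.14, adjusted exact p = 0.00636).

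Both classes of antibody gave the same calls. For Zelda and GAF alone, 6 of 7 members were lower (74.6% of 11218 genes, with 1.56% higher and a median of −2.03), with Elba1 at 0.13 and Elba2 at −1.93 (adjusted exact p = 0.466 and 0.0142). For Pol II and pSer5 alone, 6 of 7 were lower (79.7% of 11623 genes, with 3.85% higher and a median of −2.79), with Elba1 at 0.97 and Elba2 at −1.13 (adjusted exact p = 0.183 and 0.025). Neither call for Elba2 held throughout. Divided by the length under peaks in the list, the value was −0.78 for Zelda and GAF (adjusted exact p = 0.323) and −0.40 for Pol II and pSer5 (adjusted exact p = 0.794). The first also missed the threshold without mutant replicate 1 or 2 (adjusted exact p = 0.0548 and 0.0552). The second did so without WT replicate 1 (0.255), WT replicate 2 (0.138) or mutant replicate 2 (0.0873), as adjusted exact p, and without Pol II at 2.5–3 h, where its value was −0.29 (adjusted exact p = 0.141).

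**Figure D5:**
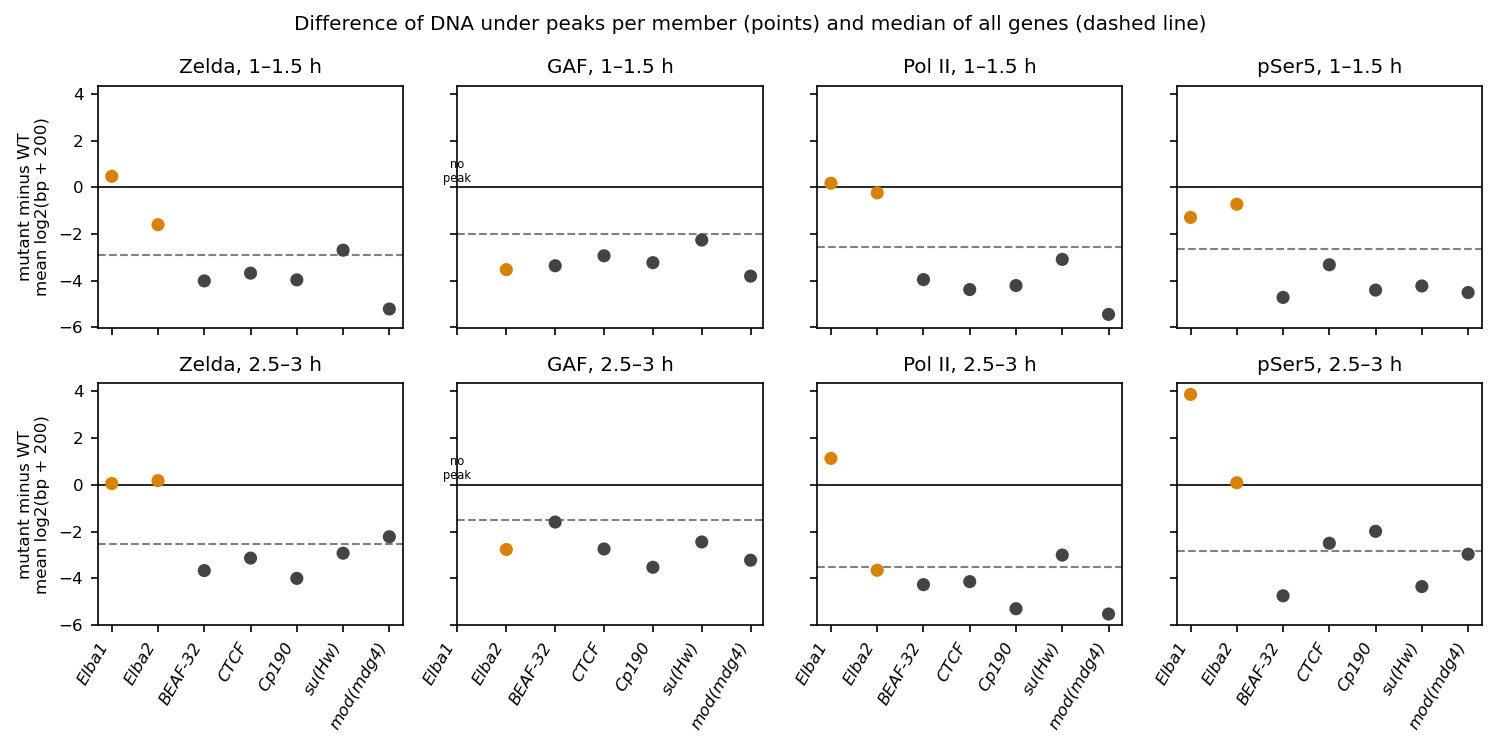
Mutant minus WT difference of mean log2(bp + 200) for each gene (points, Elba genes in orange) in each antibody and stage, with the median of all genes that have a peak in any of the 4 lists (dashed). The 5 other genes lie below 0 in all panels, and Elba1 and Elba2 lie near or above 0 in the Zelda and pSer5 panels at 2.5–3 h.

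Among 22 further genes of insulator, boundary and cohesin proteins, 19 were lower in mutant embryos in the same test over 4 antibodies, 1 was higher and 2 were not called, with a median of −2.94. That is close to all genes, of which 82.6% were lower and 3.65% higher. The largest differences were those of Ibf1 (−3.86) and Ibf2 (−3.81), whose proteins recruit Cp190, Dref (−3.82), a promoter-binding factor, and fs(1)h (−3.68), a bromodomain protein, each with adjusted exact p = 3.19e-06. The exceptions, named after their values were seen, were vtd, the cohesin subunit Rad21, which was higher (0.95, adjusted exact p = 0.00336), Nipped-B, the cohesin loader (0.04, adjusted p = 0.943), and Elba3 (0.69, adjusted p = 0.0965). Elba3 lies in the window of Elba1, and insv (−1.37, adjusted exact p = 0.000115) in that of Elba2, so these pairs share peaks and are not separate evidence.

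In WT embryos, IntS11 reached most member genes by the later stage. IntS11 peaks at 2.5–3 h measured 6535 and 5817 bp at Elba2, 6211 and 7297 bp at mod(mdg4), 3483 and 5992 bp at Cp190, 1794 and 1395 bp at CTCF, 1125 and 1973 bp at BEAF-32 and 1032 and 1331 bp at su(Hw). Elba1 had 466 bp in 1 of the later lists and was the only member without IntS11 in both, which 58.2% of all genes had. At 1–1.5 h both IntS11 lists had peaks in the windows of Elba2, with 2394 and 386 bp, and mod(mdg4), with 598 and 901 bp. The 386 bp lay over ND-B17.2 and not over Elba2. At su(Hw) 1 list had 447 bp, while 11.2% of all genes had peaks in both lists. Both later values lay above both earlier ones for 6 of 7 members, as for 86.4% of all genes with an IntS11 peak.

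Elba1 was the only member whose polymerase peaks in WT embryos were found early and not late. Pol II covered 0 bp in both WT lists at 2.5–3 h and 2393 and 1901 bp at 1–1.5 h, and pSer5 likewise 0 bp against 4361 and 4504 bp. Both later Pol II values were below both earlier ones for 4.79% of all genes with a peak, and for pSer5 for 3.59%. Zelda at Elba1 went the other way, with 1743 and 2907 bp at 2.5–3 h and 345 and 849 bp at 1–1.5 h, a separation found upward for 22.5% of all genes with a peak. Over the 5 antibodies together, Cp190 (1.25), Elba2 (0.73) and su(Hw) (0.61) had more DNA under peaks at 2.5–3 h than at 1–1.5 h (exact permutation of stage within antibody, adjusted p = 0.00609, 0.00609 and 0.0286), while 44.5% of 11777 genes were called higher and 0.535% lower. Without replicate 2 of 1–1.5 h 1 member was called, and without replicate 2 of 2.5–3 h 0. Elba1 had −1.10 (adjusted exact p = 0.189), and BEAF-32 (0.67), CTCF (0.49) and mod(mdg4) (0.68) were not called. None of the 3 calls passed when values were divided by the length under peaks in the list, which took the median of all genes to 0.37, against 0.69, and left 834 genes higher and 297 lower, against 5237 and 63.

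In mutant embryos more of the window lay under pSer5 peaks at the later stage for 5 of the 6 members that had such a peak, Elba1, Elba2, CTCF, Cp190 and mod(mdg4), with both later values above both earlier ones, against 44.5% of all genes with a peak. Zelda did so for 3 of 3, Elba1, Elba2 and mod(mdg4) (48% of all genes with a peak). Pol II moved down at Elba1 and Elba2, the only members where mutant embryos had it at either stage (50.4% of all genes with a peak).

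In larvae labelled 48AEL, Pol II was kept in the windows of all 6 members that had it there in WT. It was kept at 92.3% of all genes with peaks in both WT lists, and 0 members were lost (1.93% of all genes). Elba1 had no larval peak. Elba2 itself had 0 bp in every larval list, with peaks over its neighbours only. CTCF itself had 0 bp in both WT lists, and 197 and 0 bp in ZygoticMutant larvae. BEAF-32 itself had 339 and 0 bp in WT, against 482 and 380 bp in ZygoticMutant larvae. Values were 814 and 895 bp in ZygoticMutant larvae and 740 and 977 bp in WT at Elba2, 976 and 860 against 1720 and 802 bp at BEAF-32, 2488 and 1545 against 1591 and 999 bp at CTCF, and 1774 and 1077 against 1679 and 1007 bp at Cp190, all overlapping. At su(Hw) both mutant values, 1047 and 1219 bp, lay above 961 and 623 bp in WT, and at mod(mdg4) 3008 and 2656 bp lay above 2426 and 1457 bp, as for 17.4% of all genes. An intragenic peak at mod(mdg4), 926 and 761 bp long, was found in both mutant lists and in neither WT list. With 2 lists against 2, no larval difference can pass 0.05.

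Across the 40 lists the members other than the Elba genes resembled each other. Pearson's r of log2(bp + 200) between pairs of these 5 ranged between 0.852 for BEAF-32 with Cp190 and 0.969 for CTCF with Cp190. Elba1 correlated with Elba2 at 0.559 and with the others at −0.16 to 0.05. Elba2 was closer to mod(mdg4) (0.642), Cp190 (0.618) and CTCF (0.566) than to Elba1, and stood at 0.477 with su(Hw) and 0.371 with BEAF-32. These are descriptions, since all genes share the same lists and their total lengths. The protein-coding genes over 100 kb away with the most similar pattern were CG13711 (r = 0.848) and CG34266 (0.765) for Elba1, Sry-delta (0.922) and ImpL1 (0.922) for Elba2, CG9281 (0.990) and HUWE1 (0.989) for BEAF-32, and Arms (0.983) and sage (0.982) for CTCF. For Cp190 they were CG45099 and CG6015 (both 0.982), for su(Hw) asun (0.975) and Pabp2 (0.974), and for mod(mdg4) RasGAP1 (0.970) and CG13784 (0.969).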

How the data were processed

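Peak lists of 40 of the 76 samples were used, and the other 36 samples were not analysed here. The deposited lists hold chromosome, start and end of each peak on build dm6, a position and no signal, and, per the submitters' processing notes, the tools were MACS2 2.2.7.1, deepTools 3.5.1, Bowtie2 2.2.5, Trimmomatic 0.39 and SAMtools 1.18, in an order and with thresholds not given in the sources used here. Genes came from RefSeq's Release 6 table, which gives no strand. Python 3.11.15 with numpy 2.4.6 and pandas 2.3.3 summed the bp under peaks in each gene with 5 kb either side, and an overlap of 1 bp counted as a peak. Genes with a peak in at least 2 lists of a test were tested on log2(bp + 200) by exact permutation within antibody and stage, which reaches p = 1.19e-06 with 8 comparisons, 0.000257 with 5 and 0.00154 with 4, adjusted over all genes tested, with a threshold of 0.05. The permutation was tested on simulated data. Replicate numbers were not used as pairs. The members, the further gene list and the tests were chosen with earlier results of these data known. All 7 members were to be named, with the 2 genes most like each and the 4 further genes with the largest genotype differences. Alternatives changed the window, the peaks, the pseudocount, the scaling, the gene filter, the pairing and the replicates.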

Additional observations from a re-analysis of the deposited data

Results flagged for a closer look

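At Elba1, pSer5 was lower in both mutant lists than in both WT lists at 1–1.5 h and higher in both at 2.5–3 h, where WT had no peak. The genotype difference was 5.16 larger at the later stage on the log2(bp + 200) scale, and the stage difference was larger in mutant embryos than in WT by the same 5.16, a size that depends on the added 200 bp. In the window of Elba2, the genotype difference of Zelda was 1.78 larger at 2.5–3 h than at 1–1.5 h and that of pSer5 was 0.81 larger. Each was lower in both mutant lists early and higher in both late. Within Elba2 itself, mutant pSer5 covered less than WT at both stages. Pol II at Elba2 was lower at 2.5–3 h than at 1–1.5 h in mutant embryos and higher in WT, a difference of −3.43 between the genotypes. None of these differences was tested, and groups of 2 lists allow no check for outlying samples.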

How the results depend on the processing

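Under the alternatives run, 4 to 6 members were lower in the 3 genotype tests, 4 only for Zelda and GAF with the longest peaks. The 5 genes other than the Elba pair kept their direction throughout, and their calls over 4 antibodies held in all 17 alternatives. In the Zelda and GAF test, BEAF-32 (−1.04, adjusted exact p = 0.0891) and su(Hw) (−1.30, adjusted p = 0.126) missed the threshold with the longest peaks of each list. Elba1 turned to −0.14 over 4 antibodies, −0.23 for Zelda and GAF and −0.060 for Pol II and pSer5 within 500 bp of both gene ends. For Zelda and GAF it was also −0.13 within 1 kb, −0.23 in the gene alone, −0.074 with peaks of at least 500 bp and −0.071 to 0.33 without either WT replicate number. Over 4 antibodies it was called higher with the longest peaks (1.176, adjusted exact p = 0.0126). The 3 members higher at 2.5–3 h in WT became 1 within 1 kb and 0 in the gene alone, within 500 bp of both ends or per Mb of the list, where Elba2 was at −0.025 and mod(mdg4) at −0.074, and 0 to 3 when a replicate number was left out (without a WT replicate number the smallest exact p is 0.0625, which cannot pass). Without replicate 1 of 2.5–3 h mod(mdg4) was called higher (0.74, adjusted exact p = 0.044). The cause of these changes was not tested. Lost members fell to 2 for Zelda at each stage with the longest peaks, and to 3 for GAF at 1–1.5 h in the gene alone or at its ends. GAF at 2.5–3 h had 4 within 1 kb or in the gene alone and 5 at its ends, and 2 to 5 with a replicate number left out. For pSer5 there were 4 at 1–1.5 h with peaks of at least 500 bp or at gene ends. At 2.5–3 h there were 2 within 1 kb, in the gene alone, at gene ends, with intervals joined or with 500 bp, and 1 to 2 with a replicate number left out. Larval Pol II lost 1 with 500 bp. Same-numbered lists did not deviate together (correlations of −0.04 to 0.03), and with the replicate block 6, 6, 6 and 2 members were called in the 4 tests, su(Hw) being lost from the stage test (0.61, adjusted exact p = 0.0718). A window at the gene start could not be drawn, since strand was not used here, so both ends, chosen after seeing the data like the tests without Pol II at 2.5–3 h and without a replicate of one stage, took its place. Positions alone give no depth, so a missing peak is a peak not called.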
